A study of Mus musculus with 15 samples.

Results

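The plasminogen activator system was followed through 6 genes in the mouse mammary carcinoma line 4T1 and 4 clones derived from it: the proteases Plau and Plat, the receptor Plaur, and the serpins Serpine2, Serpinb2 and Serpinb5. They were found by symbol among the 27179 gene identifiers of the count files, and all 6 passed the filter on low counts that kept 12712 genes. The clones A, M, E1 and E2 each descend from 1 cell of the parental line, isolated after transfection with a plasmid for a near-infrared fluorescent protein held in the nucleus (pNLS-iRFP670). They were compared with the parental line and with each other. RNA sequencing covered these 5 populations with 15 libraries, 3 biological replicates per population. The labels give the genotype of the clones as iRFP670 expressing and that of the parental line as WT. Clones were maintained with the antibiotic G418, which was withdrawn for the culture that gave the RNA, and all populations were harvested after 72 h at about 80% confluency. Each clone stands for 1 founding cell, so cloning, plasmid, fluorescent protein, G418 and founder cannot be told apart in any comparison of a clone with the parental line.

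Plasminogen activators are serine proteases that cut the zymogen plasminogen into plasmin, a broad protease that dissolves fibrin, degrades pericellular matrix and activates matrix metalloproteinases. Urokinase, the product of Plau, works at the cell surface on its receptor Plaur, whereas tissue plasminogen activator, the product of Plat, is best known from fibrin clots and the nervous system. Serpins end the reaction by trapping the protease in a covalent complex, and such complexes are cleared by receptors of the LDL receptor family. In human breast cancer, high urokinase is an established marker of poor outcome.

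Libraries held 20143111 to 36831801 counts, of which 61.4% to 72.1% fell on 6 genes, leaving 6164768 to 14206491 counts for all others. A single unnamed identifier, 100861531, took the largest part, with the highest shares in E2 replicate 1 (49.1%) and parental replicate 1 (49.3%). All 10 epithelial markers had counts, with a sum of 615 to 892 CPM (counts scaled to the size of the library) in clone libraries and 384 to 434 CPM in parental libraries. Of the 10, 8 rose in M, 7 in E1, 6 in E2 and 5 in A, whereas Cdh1, the gene for E-cadherin, fell in A (22.4 CPM, against 68.2 CPM in the parental line) and in M (36.3 CPM), and Cldn7 fell in A. Rises and falls here are calls against the parental line, as defined below. Of all tested genes, 7.87% rose in M, 7.77% in E1, 9.14% in E2 and 15.1% in A. Leukocyte markers, 4 of 7 of them without a count, summed to at most 1.24 CPM and endothelial markers to at most 0.430 CPM in any library. Dcn, Lum and Thy1, 3 of the 6 fibroblast markers, had no count. Pdgfra, another of them, rose in A (26.4 CPM, against 7.13 CPM in the parental line). It accounted for most of a fibroblast sum of 21.0 to 33.8 CPM in A, against 6.85 to 7.56 CPM in the parental line. Among the counts from 1 to 20, 59.7% to 73.6% were even numbers, as they would be more often if both mates of a read pair were counted, which was not tested. Results were therefore also computed from counts halved and rounded up. Summed immediate early genes, read as a sign of handling, overlapped between all populations (61.03 to 99.8 CPM), but the sum was mostly Junb and its members moved both ways. In A, Fosb (16.9 CPM, against 1.28 CPM in the parental line) and Nr4a1 rose and Atf3 (2.03 CPM, against 20.1 CPM) and Ier2 fell, in M Fosb rose and Atf3 fell, in E2 Ier2 and Atf3 fell, and in E1 none of the 6 tested passed. In either direction, 30% of all tested genes were called in A, 14.1% in M, 17.9% in E2 and 15.1% in E1.

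**Figure D1:**
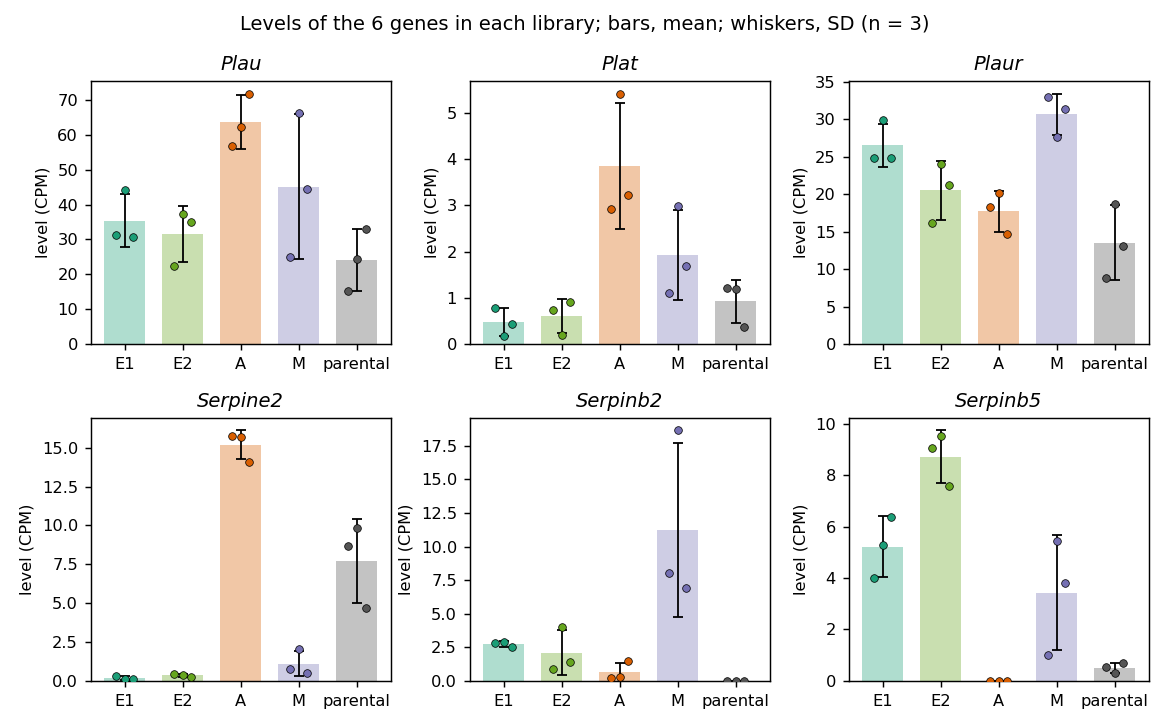
Level of each of the 6 genes (y axis, CPM scaled to the TMM-adjusted library total, a separate linear scale for each gene) in clones E1, E2, A and M and in the parental line. Points are libraries, bars the means and whiskers the SD of 3 replicates. Serpine2 lies above 14 CPM in A and below 2.1 CPM in the other clones, Serpinb5 is at 0 in A, and Serpinb2 is at 0 in the parental line.

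Levels are given for replicates 1, 2 and 3 in turn. A difference is called, or passes, where edgeR's quasi-likelihood test gave a Benjamini-Hochberg adjusted p under 0.05 over the 12712 genes tested in that comparison. Plau, which encodes urokinase and lies on chromosome 14 (20836662 to 20843388, GRCm38), was the activator with the higher level in every population. It reached 56.7, 62.3 and 71.8 CPM in A, against 15.2, 24.3 and 33.0 CPM in the parental line. All A libraries lay above all parental ones, and the fold change was 2.62 (log2 fold change 1.39, SE 0.34, edgeR adjusted p = 0.00603). In bulk RNA of this kind, a change in the share of expressing cells and a change in RNA per cell cannot be told apart.

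In the other clones Plau had 31.3, 44.0 and 30.8 CPM in E1, 22.4, 37.2 and 35.0 CPM in E2, and 24.8, 66.2 and 44.4 CPM in M. Each of these ranges overlapped with that of the parental line. Their log2 fold changes against it, 0.54 in E1 (SE 0.37, edgeR adjusted p = 0.310), 0.38 in E2 (SE 0.40, adjusted p = 0.488) and 0.90 in M (SE 0.52, adjusted p = 0.0889), did not pass. The M replicates spread most for Plau (SD 20.7 CPM), and replicate 2 gave the highest of them. The result for M crossed the threshold when M replicate 1 was left out (edgeR adjusted p = 0.00496) or when parental replicate 3 was left out (0.0440). With no filter on low counts, Plau passed against the parental line in both M (edgeR adjusted p = 1.54e-05) and E1 (0.0236). Among the clones, Plau was 2.01-fold higher in A than in E2 (log2 fold change 1.01, SE 0.25, edgeR adjusted p = 0.0432), a call that was lost without any 1 of E2 replicates 1 to 3, A replicates 1 to 3, E1 replicates 1 and 3, M replicate 3 or parental replicate 2 (0.0531 to 0.174). A against E1 gave 0.85 (SE 0.19, edgeR adjusted p = 0.0702) and passed without M replicate 1 (0.0120), M replicate 2 (0.0217) or parental replicate 3 (0.0486). It also passed in a fit of the 2 populations alone (edgeR adjusted p = 4.65e-05) and with no filter on low counts (4.36e-05). The order of mean levels was A, M, E1, E2 and the parental line, and no 2 neighbours in that order differed beyond their spread. This holds for the fit without pairing of replicates. Plau calls gained with replicate numbers as a block, M against A among them, are given at the end.

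Plat, for tissue plasminogen activator, lies on chromosome 8 (22757722 to 22782848) and was expressed near the lower limit of these libraries. It had 2.92, 5.41 and 3.23 CPM in A, against 1.21, 1.19 and 0.378 CPM in the parental line. A again lay above the parental line without overlap, by 3.99-fold (log2 fold change 2.00, SE 0.57, edgeR adjusted p = 0.00819). That call was lost without A replicate 2 (edgeR adjusted p = 0.0580) or parental replicate 3 (0.0541). M had 1.10, 2.99 and 1.68 CPM, E1 had 0.787, 0.186 and 0.441 CPM, and E2 had 0.728, 0.209 and 0.912 CPM. M, E1 and E2 each overlapped with the parental line, and their log2 fold changes of 1.03 (SE 0.64), -0.83 (SE 0.71) and -0.52 (SE 0.75) did not pass (edgeR adjusted p = 0.230, 0.348 and 0.584). The E1 and E2 values rest on 4 to 30 counts per library.

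Between clones, Plat was 7.11-fold higher in A than in E1 (log2 fold change 2.83, SE 0.57, edgeR adjusted p = 0.000507) and 5.73-fold higher in A than in E2 (2.52, SE 0.62, adjusted p = 0.00216). M against E1 gave 1.86 (SE 0.65, edgeR adjusted p = 0.0602), without overlap of the replicates, and passed without E1 replicate 1 (0.0473), E2 replicate 2 (0.0430) or M replicate 1 (0.0469). Levels ran in the order A, M, parental, E2 and E1, and no neighbouring pair differed beyond its spread. Scaled to transcript length, the level of Plau (CPM per kb) was 12.4 to 24.0 times that of Plat in A, 23.9 to 28.4 times in M, 42.9 to 256 times in E1, 33.1 to 192 times in E2, and 13.6 to 94.1 times in the parental line.

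Plaur encodes the urokinase receptor, a protein held in the membrane by a lipid anchor that concentrates urokinase at the cell surface and also contacts integrins and vitronectin. It lies on chromosome 7 (24460937 to 24475970). The RefSeq window at hand is the 250 bases (chr7:24462233-24462482, plus strand, GRCm38.p6) before a start at 24462483, which is inside that span. It is shown because it is the only one of the available windows with a match to the AP-1 motif TGACTCA. Capitals mark that motif and 3 overlapping or adjoining GC boxes (GGGCGG).
Plaur: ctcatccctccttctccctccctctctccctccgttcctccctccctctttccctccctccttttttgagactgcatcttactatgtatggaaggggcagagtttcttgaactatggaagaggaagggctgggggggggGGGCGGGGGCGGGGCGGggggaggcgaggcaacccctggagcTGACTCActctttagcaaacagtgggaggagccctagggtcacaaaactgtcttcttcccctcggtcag
The AP-1 match lies 69 to 63 bases before the start at 24462483. On either strand, 4.46% of the 32817 RefSeq windows of this length hold TGACTCA and 32.7% hold GGGCGG. A letter match is not evidence of binding.

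Plaur had 33.0, 27.6 and 31.4 CPM in M and 24.8, 29.9 and 24.9 CPM in E1, against 8.82, 18.7 and 13.1 CPM in the parental line. Both clones lay wholly above it. Plaur rose 2.25-fold in M (log2 fold change 1.17, SE 0.32, edgeR adjusted p = 0.000354) and 1.95-fold in E1 (0.96, SE 0.32, adjusted p = 0.00255). E2, with 16.2, 24.1 and 21.2 CPM, overlapped with the parental line and stood at the threshold (0.60, SE 0.35, edgeR adjusted p = 0.0493). Its call was lost without any 1 of 12 libraries (E2 replicates 2 and 3, E1 replicates 1 to 3, A replicates 1 to 3, M replicates 2 and 3, and parental replicates 1 and 3), with adjusted p between 0.0512 and 0.284. A had 18.3, 20.1 and 14.8 CPM and did not pass (0.38, SE 0.34, edgeR adjusted p = 0.180), but passed without parental replicate 2 (0.68, adjusted p = 0.0177).

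By mean level, the clone with the most Plau was A and the clone with the most Plaur was M. These first places were not settled. In Plau, M against A did not pass (log2 fold change -0.49, SE 0.42, edgeR adjusted p = 0.355) and the replicates overlapped. In Plaur, M against E1 did not pass either (0.21, SE 0.12, edgeR adjusted p = 0.666). In M, Plaur was 1.73-fold higher than in A (log2 fold change 0.79, SE 0.15, edgeR adjusted p = 0.00899), with no overlap. That call was lost without A replicate 3 (adjusted p = 0.0641). A was lower than E1 (-0.58, SE 0.16, edgeR adjusted p = 0.0368), a call lost without any 1 of A replicates 1 and 3, E1 replicates 1 to 3 or E2 replicate 3 (0.0519 to 0.165). In the order M, E1, E2, A and parental, no step between neighbours passed. Per kb of transcript, the ratio of Plau to Plaur was 1.99 to 3.13 in A, 0.796 to 0.948 in E1, 0.886 to 1.06 in E2, 0.484 to 1.54 in M and 0.833 to 1.62 in the parental line, so the A libraries did not overlap with any other population. This ratio was computed after the levels had been seen and was not tested.

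Serpine2 encodes protease nexin-1, a secreted serpin that inhibits thrombin, urokinase and tissue plasminogen activator. It was called in more comparisons than any other of the 6 genes, although some of these calls were lost without single libraries. The gene lies on the minus strand of chromosome 1 (79794317 to 79858665), and the 250 bases before its start (chr1:79858666-79858915, minus strand) are shown because they hold the densest run of GC boxes among the windows, in capitals.
Serpine2: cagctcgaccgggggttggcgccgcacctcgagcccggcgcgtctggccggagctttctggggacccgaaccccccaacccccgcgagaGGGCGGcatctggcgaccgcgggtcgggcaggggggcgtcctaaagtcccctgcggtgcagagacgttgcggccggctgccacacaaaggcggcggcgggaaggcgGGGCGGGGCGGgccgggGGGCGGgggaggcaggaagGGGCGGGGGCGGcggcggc
It holds 6 matches to GGGCGG, 5 of them within 55 bases of the start, and none to TGACTCA, to the cAMP response element TGACGTCA or to the TATA box TATAAA. RefSeq windows with these last 3 motifs make up 4.46%, 1.55% and 12.4% of all.

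Serpine2 had 15.8, 15.7 and 14.1 CPM in A, against 8.68, 9.83 and 4.66 CPM in the parental line. The other clones lay far below, at 0.303, 0.0929 and 0.126 CPM in E1, 0.416, 0.384 and 0.273 CPM in E2, and 0.793, 2.03 and 0.518 CPM in M. No clone overlapped with the parental line, A lying above it and E1, E2 and M below. Against the parental line, Serpine2 was 31.0-fold lower in E1 (log2 fold change -4.95, SE 0.49, edgeR adjusted p = 2.29e-08), 18.5-fold lower in E2 (-4.21, SE 0.36, adjusted p = 1.77e-07) and 6.39-fold lower in M (-2.68, SE 0.64, adjusted p = 1.95e-05). In M the size depended on replicate 2, without which the log2 fold change was -3.44. In A it rose 1.96-fold (0.97, SE 0.33, edgeR adjusted p = 0.0362), and this call was lost without any 1 of A replicates 1 to 3 or parental replicates 1 and 3 (0.0649 to 0.190).

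In Serpine2, A differed more from E1 and E2 than any clone did from the parental line. A exceeded E1 by 60.8-fold (log2 fold change 5.93, SE 0.37, edgeR adjusted p = 5.19e-10) and E2 by 36.3-fold (5.18, SE 0.16, adjusted p = 3.50e-09). M was 12.5-fold below A (-3.65, SE 0.55, edgeR adjusted p = 3.58e-07; -4.41 without M replicate 2). M lay above E1 (2.28, SE 0.65, edgeR adjusted p = 0.00263; 1.52 without M replicate 2; adjusted p = 0.111 in a fit of the 2 populations alone) and above E2 (1.53, SE 0.57, adjusted p = 0.0403). The call of M against E2 was lost without any 1 of E2 replicates 1 to 3, A replicates 1 to 3 or M replicate 2, with adjusted p between 0.0547 and 0.320, and also in a fit of the 2 populations alone (0.341) and with counts halved (0.0693), and without M replicate 2 the log2 fold change was 0.78. E2 and E1, at the bottom of the order A, parental, M, E2 and E1, did not differ beyond their spread (0.74, SE 0.39, edgeR adjusted p = 0.710), on 16 counts in all E1 libraries together and 28 in all E2 libraries.

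Serpinb2 encodes PAI-2, an inhibitor of urokinase and tissue plasminogen activator that is secreted poorly and stays largely in the cytosol. It lies on chromosome 1 (107500892 to 107525600). The window shown ends before a RefSeq start at 107511423, which is inside that span and not at its edge. These 250 bases (chr1:107511173-107511422, plus strand) are shown for their TATA box, in capitals, which none of the other printed windows holds.
Serpinb2: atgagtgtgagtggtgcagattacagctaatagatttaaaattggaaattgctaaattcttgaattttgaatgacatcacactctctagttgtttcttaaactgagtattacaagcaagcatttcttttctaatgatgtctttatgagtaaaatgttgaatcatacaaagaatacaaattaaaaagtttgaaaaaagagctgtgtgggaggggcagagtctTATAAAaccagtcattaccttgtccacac
The box lies 29 to 24 bases before that start, and 12.4% of RefSeq windows hold these letters on either strand.

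Not 1 count of Serpinb2 was seen in the 3 parental libraries, while all 12 clone libraries had at least 6 counts. It had 8.06, 18.6 and 6.93 CPM in M, 2.84, 2.93 and 2.49 CPM in E1, 0.885, 4.01 and 1.40 CPM in E2, and 0.199, 0.293 and 1.48 CPM in A, against 0 CPM in each parental library. With a floor of 3 counts over the parental libraries (0.0378 CPM), Serpinb2 was at least 297-fold higher in M, at least 72.9-fold in E1, at least 55.6-fold in E2 and at least 17.4-fold in A. The bounds were 198-fold in M without M replicate 2, 30.2-fold in E2 without E2 replicate 2 and 6.52-fold in A without A replicate 3, and without parental replicate 3 they were 178-fold, 43.8-fold, 33.4-fold and 10.4-fold in M, E1, E2 and A. If each fragment gave 2 counts, the floor would be 6 counts and the bounds 148-fold in M, 36.5-fold in E1, 27.8-fold in E2 and 8.69-fold in A. All 4 comparisons passed (edgeR adjusted p = 6.70e-05 in M, 0.000698 in E1, 0.000958 in E2 and 0.00519 in A). The fitted log2 fold changes depend on the prior count. They were 7.36 in M (6.74 without M replicate 2), 5.35 in E1, 4.99 in E2 (4.15 without E2 replicate 2) and 3.40 in A (2.18 without A replicate 3).

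Among clones, Serpinb2 was 15.5-fold higher in M than in A (log2 fold change 3.95, SE 0.90, edgeR adjusted p = 0.00119; 5.16 without A replicate 3). It was lower in A than in E1 (-1.95, SE 0.78, edgeR adjusted p = 0.0372), a call lost without any 1 of A replicates 1 and 2 or E1 replicates 1 to 3 (0.0743 to 0.124), whereas without A replicate 3 the value was -3.16. M against E1 (2.00, SE 0.45, edgeR adjusted p = 0.102) and M against E2 (2.37, SE 0.76, adjusted p = 0.0579) did not pass, although all M libraries lay above those of E1 and E2. The first passed without E2 replicate 2 (edgeR adjusted p = 0.0426) or A replicate 3 (0.0162), and the second without E2 replicate 2 (0.0147), A replicate 1 (0.0429) or A replicate 3 (0.00603). A against E2 (-1.58, SE 1.00, edgeR adjusted p = 0.103) passed without A replicate 3 (0.00306) or M replicate 2 (0.0485). In the order M, E1, E2, A and parental, the last step was the only one that passed.

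Serpinb5 encodes maspin, a serpin of the same clade that does not inhibit proteases and was described as a tumour suppressor of human mammary epithelium. It lies on chromosome 1 (106861175 to 106883348), 618 kb from Serpinb2. The 250 bases before its start (chr1:106860925-106861174, plus strand) are shown for comparison with those of its neighbour.
Serpinb5: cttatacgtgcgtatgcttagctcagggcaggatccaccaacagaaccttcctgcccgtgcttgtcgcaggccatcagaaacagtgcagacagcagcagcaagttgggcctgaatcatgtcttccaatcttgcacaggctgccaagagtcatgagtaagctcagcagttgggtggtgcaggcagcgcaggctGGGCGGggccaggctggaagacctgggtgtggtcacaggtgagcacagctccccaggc
Capitals mark a GC box 58 to 53 bases before the start. The TATA box of Serpinb2 was not among these letters.

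Serpinb5 had 9.05, 9.53 and 7.57 CPM in E2, 3.99, 5.30 and 6.37 CPM in E1, and 1.01, 5.44 and 3.82 CPM in M, against 0.557, 0.306 and 0.693 CPM in the parental line. All libraries of these 3 clones lay above the parental ones. It rose 14.8-fold in E2 (log2 fold change 3.89, SE 0.32, edgeR adjusted p = 3.16e-06), 8.94-fold in E1 (3.16, SE 0.36, adjusted p = 4.67e-05) and 5.98-fold in M (2.58, SE 0.78, adjusted p = 0.000317). In A no library had a count, against 42 counts over the parental libraries. With a floor of 3 counts over the A libraries (0.0322 CPM), Serpinb5 was at least 16.1-fold lower in A than in the parental line (edgeR adjusted p = 5.89e-05). A was also at least 271-fold lower than E2 (edgeR adjusted p = 3.50e-09) and at least 162-fold lower than E1 (7.71e-09), and M was at least 107-fold higher than A (1.30e-07). Without A replicate 3 these bounds were 10.5-fold against the parental line, 177-fold against E2, 106-fold against E1 and 69.4-fold for M, and with a floor of 6 counts they were 8.07-fold, 136-fold, 81.2-fold and 53.3-fold. M against E2 did not pass (-1.31, SE 0.72, edgeR adjusted p = 0.0726) but did without M replicate 2 (-1.78, adjusted p = 0.0153). In the order E2, E1, M, parental and A, the steps from M to the parental line and from the parental line to A passed, and the steps among E2, E1 and M did not.

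**Figure D2:**
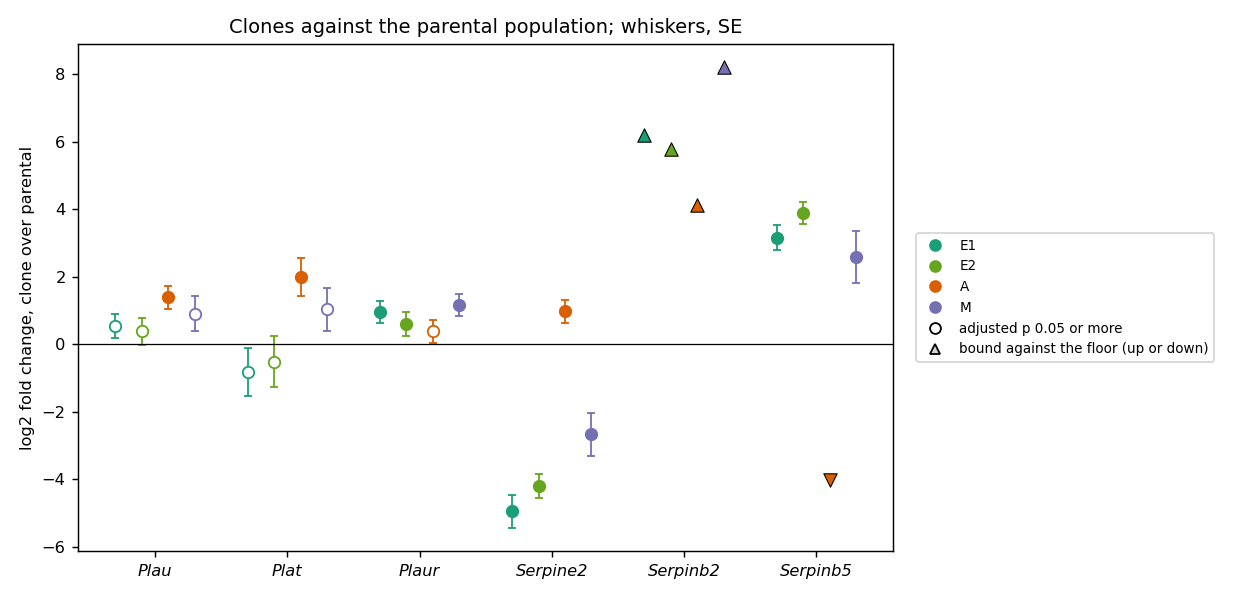
Log2 fold change of each gene in E1, E2, A and M over the parental line (y axis; x axis, gene). Filled circles passed at an edgeR adjusted p under 0.05, open circles did not, whiskers are SE, and triangles are bounds against a floor of 3 counts where a population had no count. Serpine2 and Serpinb5 in A lie on the other side of 0 from E1, E2 and M.

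Set side by side, 4 of the 6 genes were called in E1 against the parental line, 3 higher (Plaur, Serpinb2, Serpinb5) and 1 lower (Serpine2), where 15.1% of all tested genes were called (7.77% higher, 7.35% lower). The same split held in E2, where 17.9% were called (9.14% higher, 8.8% lower), and in M, where 14.1% were called (7.87% higher, 6.28% lower). In E2 the call of Plaur stood at the threshold and was lost in 18 of 25 alternative settings. With 1 library left out, 3 to 4 members were called there. In A, 5 of the 6 were called, 4 higher (Plau, Plat, Serpine2, Serpinb2) and 1 lower (Serpinb5), where 30% of tested genes were called (15.1% higher, 14.9% lower), but 3 without A replicate 2 or parental replicate 3. The median log2 fold change of the 6 genes was 1.18 in A, 1.10 in M, 0.75 in E1 and 0.49 in E2, against 0.03, -0.01, -0.01 and 0.01 over all tested genes in the same comparisons. These 4 comparisons share the parental libraries. Serpine2 and Serpinb5 were each called higher in at least 1 clone and lower in at least 1 clone, which was the case for 1.36% of tested genes. Serpinb2 was called higher in all 4 clones, as were 2.45% of tested genes. The 6 genes were chosen with earlier results of these data known, so these shares are a background and no test of the group.

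E2 and E1 were not told apart by any of the 6 genes, and 30 genes in all (0.236% of those tested) were called between them by edgeR. The Plaur and Serpinb5 replicates of these clones nevertheless did not overlap, with 16.2 to 24.1 CPM in E2 and 24.8 to 29.9 CPM in E1 for Plaur, and 7.57 to 9.53 CPM in E2 and 3.99 to 6.37 CPM in E1 for Serpinb5, as was the case for 15.1% of tested genes. At an unadjusted edgeR p under 0.05 none of the 6 passed either, the lowest being 0.0803 for Serpinb5, and DESeq2 called 0 of the 6. A against E1 gave 5 of the 6 (29.6% of tested genes called), A against E2 gave Plau, Plat, Serpine2 and Serpinb5 (22.4%), and M against A gave Plaur, Serpine2, Serpinb2 and Serpinb5 (17.7%). Of the 6, only Serpine2 was called in M against E1 (3.89%) and in M against E2 (3.5%). In a fit of M and E1 alone, Serpinb2 was called (edgeR adjusted p = 0.00380) and Serpine2 was not (0.111). Leaving out 1 library moved 3 of these counts by over 1.5 times: A against E1 gave 3 without A replicate 1 or any 1 of the E1 replicates, M against E1 gave 3 without E2 replicate 2 and 2 without M replicate 1, E1 replicate 1 or A replicate 3, and M against E2 gave 0 without E2 replicate 1, E2 replicate 3 or A replicate 2. A against E1 otherwise gave up to 6, A against E2 gave 3 to 5, and M against A gave 3 to 4.

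Serpine2 was called in 9 of the 10 comparisons, Serpinb5 in 7, Serpinb2 in 6, Plaur in 5, Plat in 3 and Plau in 2. Several of these calls were lost without single libraries, as given above. For Serpine2 these were A against the parental line and M against E2. For Plaur they were E2 against the parental line, A against E1 and M against A. Plat in A against the parental line, Plau in A against E2 and Serpinb2 in A against E1 were further such calls. The median tested gene was called in 1, and 0.0472% of tested genes were called in at least 9, 1.49% in at least 7, 4.55% in at least 6 and 7.98% in at least 5. Because the 6 genes were chosen with earlier results known, this background is no test of them. All 6 genes passed the test of any difference among the 5 populations, which 40.9% of tested genes passed, with adjusted p between 1.26e-11 for Serpine2 and 0.0256 for Plau.

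To set the protease against its inhibitors, levels were divided by transcript length. Serpine2 had 6.38 to 7.14 CPM per kb in A, 0.234 to 0.920 in M, 0.124 to 0.188 in E2 and 0.0420 to 0.137 in E1, against 2.11 to 4.45 CPM per kb in the parental line. Serpinb2 had 3.47 to 9.34 CPM per kb in M, 1.25 to 1.47 in E1, 0.443 to 2.01 in E2 and 0.0998 to 0.739 in A, and was at 0 in the parental line. Serpine2 thus exceeded Serpinb2 in every A and parental library, and Serpinb2 exceeded Serpine2 in every library of M, E1 and E2. The ratio of Plau to Serpine2 per kb was 97.6 to 447 in E1, 50.7 to 121 in E2, 29.6 to 80.9 in M and 3.39 to 4.80 in A, against 1.65 to 6.68 in the parental line. A overlapped with the parental line in this ratio, and E1, E2 and M lay above both. The size of the ratio is uncertain in E1 and E2. It rests there on 10, 2 and 4 counts of Serpine2 in E1 replicates 1, 2 and 3, and on 8, 11 and 9 in those of E2. Ratios depend on the transcript assumed: with the length of all annotated exons together, which is 8287 bases for Serpine2 against 2210 bases for its transcript, the ratio was 12.6 to 17.8 in A and 6.12 to 24.8 in the parental line. This comparison was chosen after the levels were seen, and it carries no test.

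Substrate and surface partners of the system were counted next, in lists chosen with earlier results of these data known. Plg, the gene for plasminogen, had no count in any of the 15 libraries, and neither had the genes for vitronectin (Vtn), factor XI (F11) or the plasmin-regulated carboxypeptidase Cpb2. Of 6 tested surface proteins that bind plasminogen, 3 rose in E1 and 2 in each other clone, and none fell, where the share of all tested genes that rose was 15.1% in A, 7.87% in M, 7.77% in E1 and 9.14% in E2. The median log2 fold change of these 6 ran between 0.20 in A and 0.35 in E1, with M at 0.29 and E2 at 0.34. S100a10, which presents plasminogen together with annexin A2, rose in all 4 clones (49.8 to 73.5 CPM, against 36.6 CPM in the parental line), as did Krt8, a keratin that can bind plasminogen at the surface (95.6 to 202 CPM, against 59.4 CPM). Eno1, a glycolytic enzyme also found at the surface, rose in E1 (log2 fold change 0.46, SE 0.15, edgeR adjusted p = 0.0310). Anxa2 itself did not pass in any clone (82.1 to 104 CPM, against 76.0 CPM). Summed epithelial markers, of which Krt8 is 1, were higher in every clone library than in the parental ones, although Cdh1 fell in A and M and Cldn7 in A, and their part in these values was not tested.

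Of 12 tested integrins, clearance receptors and other partners of the urokinase receptor, none rose and 2 fell in E1, none rose and 3 fell in E2, 2 rose and 1 fell in A, and 1 rose and 3 fell in M. In either direction, 30% of all tested genes were called in A, 14.1% in M, 15.1% in E1 and 17.9% in E2, so the counts in E1 and A were near that background. At the median of the 12, A had a log2 fold change of 0.45, M of 0.19, E2 of -0.06 and E1 of -0.27. Vldlr, a receptor that takes up complexes of urokinase with serpins, fell in every clone, to 3.16 CPM in M, 6.28 CPM in E2, 7.03 CPM in E1 and 12.2 CPM in A, against 44.1 CPM in the parental line (log2 fold changes -3.80, -2.82, -2.63 and -1.85, edgeR adjusted p = 0.00098 or lower). Lrp1, a larger receptor of the same family with the same ligands, rose in A (293 CPM, log2 fold change 0.98, edgeR adjusted p = 0.0298) and in M (303 CPM, 1.03, adjusted p = 0.0438), against 148 CPM in the parental line. Igf2r, which binds the urokinase receptor, rose in A (0.54, edgeR adjusted p = 0.00823), and Sorl1, another uptake receptor, fell in M (-1.20, adjusted p = 0.00508). Itgb5, a subunit of a vitronectin receptor, fell in E1, E2 and M by 0.76 to 0.88 on the log2 scale (-0.88 in E1, -0.76 in E2 and -0.81 in M).

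Of 7 tested proteases that act before or after plasmin, 3 rose and 1 fell in A, 1 fell in E1, 2 fell in E2, and none passed in M. The count in E1 was near the 15.1% of all tested genes called there, and 30% were called in A, 17.9% in E2 and 14.1% in M. At the median of the 7, A had a log2 fold change of 0.50, M of -0.14, E1 of -0.30 and E2 of -0.50. Mmp3, or stromelysin-1, a target of plasmin, reached 139 CPM in A, against 8.51 CPM in the parental line (log2 fold change 4.01, SE 0.38, edgeR adjusted p = 0.00214). Ctsl, a lysosomal protease, rose in A (1.15, edgeR adjusted p = 1.55e-05) with Mmp14, the membrane-bound collagenase (0.50, adjusted p = 0.0146), and Mmp9, a gelatinase, fell there (-2.05, adjusted p = 0.00302). Ctsb, a protease that can activate pro-urokinase, fell in E1 (-0.96, edgeR adjusted p = 0.000296) and E2 (-1.61, adjusted p = 3.65e-07), and Mmp14 also fell in E2 (-0.67, adjusted p = 0.00380).

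More widely, 64 serpin genes, found by symbols starting with Serpin, were counted, of which 36 had a count and 15 were tested. Counting Serpine2, Serpinb2 and Serpinb5 themselves, 4 rose and 3 fell in E1, 2 rose and 2 fell in E2, 3 rose and 4 fell in A, and 2 rose and 3 fell in M. These counts stand beside 15.1%, 17.9%, 30% and 14.1% of all tested genes called in the same comparisons, and the 3 members among them were chosen with their results known. At the median of the 15, M had a log2 fold change of 0.68, E2 of 0.44, E1 of 0.17 and A of 0.08. Within clade B, the intracellular serpins, 8 of 28 were tested, of which 4 rose in E1 and 2 in each other clone, and 2 fell in A. In E2 and in M, those that rose were the members Serpinb2 and Serpinb5, which were also among those in E1. In A, Serpinb2 was among those that rose and Serpinb5 among those that fell. Of all tested genes, 7.77% rose in E1, 9.14% in E2, 7.87% in M and 15.1% in A, where 14.9% fell. Serpinb6a, at 100.4 to 106 CPM in the clones and 89.1 CPM in the parental line, did not pass in any clone. Serpinb9, an inhibitor of granzyme B, rose in E1 (12.3 CPM, against 5.65 CPM in the parental line; log2 fold change 1.11, SE 0.21, edgeR adjusted p = 0.00430). Serpinh1, a chaperone of collagen that inhibits no protease, fell in all 4 clones (36.4 to 42.0 CPM, against 66.7 CPM). Among the 15, Serpine2 and Serpinb5 were the only ones called in both directions among the clones. Serpinb6, Serpinb9 and Serpina3 genes each have near copies, and how reads shared by copies were counted is not given in the sources used here, so their values are uncertain.

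**Figure D3:**
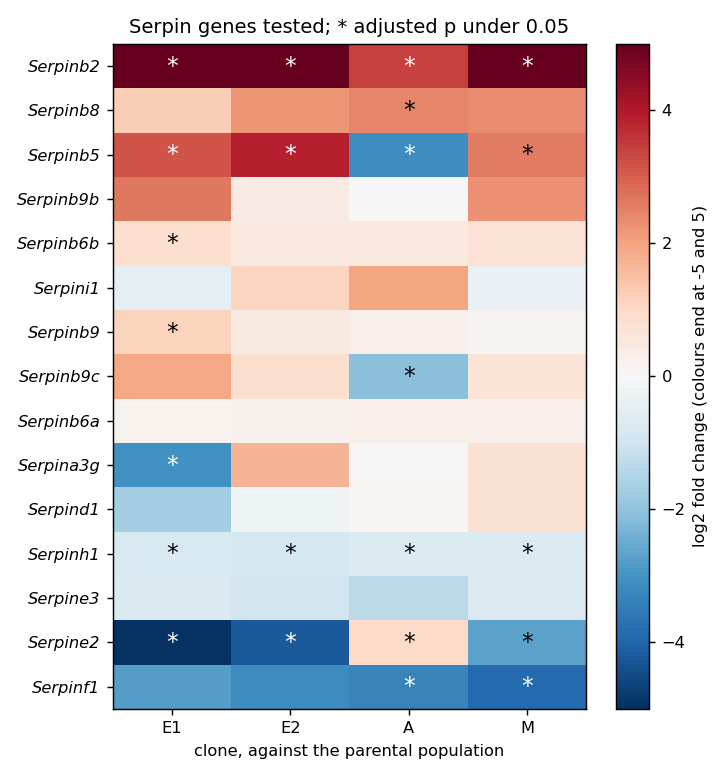
Log2 fold change (colour; red higher, blue lower) of 15 tested serpin genes (rows) in E1, E2, A and M over the parental line (columns). Asterisks mark an edgeR adjusted p under 0.05, and where a population had no count, as for Serpinb2 in the parental line, the colour depends on the prior count of 2. Serpinh1 is marked in all 4 columns with the same sign, and Serpine2 and Serpinb5 change sign in column A.

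Genes beside each member on its chromosome were read next. Serpinb5 and Serpinb2 share a stretch of chromosome 1, and of the 6 nearest tested genes of Serpinb5, Serpinb2 among them, 5 rose and 1 fell in A, where Serpinb5 itself had no count. Those that rose in A included Kdsr (134 CPM, against 50.9 CPM in the parental line), Bcl2, the inhibitor of apoptosis (66.7 CPM, against 33.0 CPM), and Dsel (21.7 CPM, against 11.1 CPM). Vps4b fell there (30.9 CPM, against 42.7 CPM). In E1, 2 of these 6 neighbours rose, and in E2 and in M 3 rose, with none falling. As background, 30% of all tested genes were called in A, 14.1% in M, 15.1% in E1 and 17.9% in E2, and 2 of 6 neighbours in A or 1 of 6 in another clone is near these shares. Of the 6 neighbours of Serpine2, 1 fell in E2, 2 rose and 2 fell in A, and 1 rose in M. Irs1, an adaptor of the insulin receptor, rose in A (log2 fold change 1.22) and in M (0.55). None of the neighbours of Serpine2 passed in E1, where Serpine2 was lowest. Of the 6 neighbours each, 2 of Plau fell in E1 and E2 and 1 in A, 2 of Plat fell in A, and 2 of Plaur rose and 1 fell in A, with 1 rising in M. Serpinb2 shares most of its 6 neighbours with Serpinb5 and has Serpinb5 among them. Of these, 3 rose and 2 fell in A, and 2 rose in each other clone.

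Across the 15 libraries, the genes whose log2 CPM followed each member most closely were taken as a description, since libraries of 1 population and their depth are shared between points. Cd44, the hyaluronan receptor, followed Plau (Pearson r = 0.957 over 15 libraries, highest of 8267 genes), with 331 CPM in A and 192 CPM in the parental line. Dock8 and Sgms2 came next (0.929 and 0.928). Serpinb5 was followed by Gars, Lamb3, a chain of the epithelial laminin, and Jag1, a Notch ligand (0.986, 0.978 and 0.973). Lamb3 had 8.91 CPM in A, 37.2 CPM in E1, 37.8 CPM in E2 and 31.0 CPM in M, against 15.4 CPM in the parental line. Serpine2 was followed by Ank, Sdc3 and Qrich1 (0.961, 0.959 and 0.951), Serpinb2 by Cav1, Golim4 and Pvr (0.930, 0.920 and 0.912), Plat by Ifi27, Angptl2 and Por (0.903, 0.891 and 0.879), and Plaur by Myl6, Tbcel and Sft2d1 (0.893, 0.892 and 0.891). Cav1, the scaffold of caveolae, had 61.1 CPM in M, 40.1 CPM in E1, 41.2 CPM in E2 and 33.8 CPM in A, against 14.5 CPM in the parental line.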

How the data were processed

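RNA was sequenced from 15 libraries of 5 populations. The authors deposited raw counts per gene for each library. Per the submitters' processing notes, HISAT2, featureCounts and DESeq2 were used with GRCm38 and mm10. Versions and strand setting are not given in the sources used here. The authors' normalized and comparison tables were not used. Identifiers were named by a RefSeq table of GRCm38.p6 (25275 of 27179) and by GENCODE (17), and 1887 stayed unnamed. RefSeq windows before the start were at hand for 4 of the 6 members, not for Plau and Plat.

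Counts were tested with edgeR 4.0.16 in R 4.3.3 (limma 3.58.1). filterByExpr (minimum count 10, minimum total count 15) kept 12712 genes. TMM factors were 0.847 to 1.11. A robust quasi-likelihood fit of population gave 10 comparisons and an overall test, with Benjamini-Hochberg adjusted p within each and a threshold of 0.05. The common dispersion was 0.0651 and the prior count 2. SE comes from the SD of log2 CPM. The p-values measure only the spread between these replicates. Intervals and floors (3 counts over a population) cover counting error only. Levels per kb use the longest GENCODE M21 transcript linked to a curated RefSeq transcript. The tests were checked on simulated data.

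Replicate numbers are shared between populations, but the labels do not say that they mark a shared culture or day, so no block was used. Of same-numbered correlations of deviations, 4 of 30 were over 0.1, against 0 of 60 for different numbers. For 14 of 15 libraries the closest library of another population had the same number. Both are a hint that replicates may be paired. DESeq2 1.42.0, RLE factors, filters, the prior count, the block, 2-population fits and left-out libraries were alternatives. Members and lists were chosen with earlier results of these data known. Genes named are the members, up to 4 called genes per list with the largest change and at least 5 CPM in the higher population, the 3 genes most like each member, and the 3 nearest tested genes on each side. Serpinb6a, Anxa2, Vtn, Plg, F11, Cpb2, Junb, Nr4a1 and Cldn7 were named after their values were seen. A gene of these lists is not reported here and is left out of the counts over lists.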

Additional observations from a re-analysis of the deposited data

How the results depend on the processing

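For single members, 1392 values kept their direction and their side of the threshold under the alternatives, 60 lost a call, 40 gained one and 5 changed sign. Those 5 were not called: Plau in E2 vs E1 was 0.0234 without parental replicate 1 and E2 replicate 1 together and ran from -0.296 to 0.0325 with 1 library left out, Plau in M vs E1 from -0.00605 to 0.648 and Plat in E2 vs E1 from -0.0939 to 0.8002.

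With 1 library left out at a time, the number of members called was 4 to 4 for E1 vs parental, 3 to 4 for E2 vs parental, 3 to 6 for A vs parental, 4 to 5 for M vs parental, 0 to 0 for E2 vs E1, 3 to 6 for A vs E1, 1 to 3 for M vs E1, 3 to 5 for A vs E2, 0 to 1 for M vs E2, 3 to 4 for M vs A and 5 to 6 for any difference. The number of genes called was 1084 to 2083, 1569 to 2449, 2997 to 3966, 1145 to 1975, 9 to 46, 2938 to 3915, 210 to 824, 2019 to 3046, 208 to 723, 1479 to 2411 and 4361 to 5476 in the same order.

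Other alternatives moved these counts as follows. With no filter, 3 members were called in M vs E1 and 3 in M vs E2, with 128 genes called in E2 vs E1, 817 in M vs E1 and 790 in M vs E2. With DESeq2, 2 members were called in M vs E1 and 3 in M vs E2, with 128 genes in E2 vs E1 and 738 in M vs E2. A minimum count of 30 gave 2 members in M vs E2, and counts halved and rounded up, an alternative chosen after seeing the data, gave 2 in M vs E1. Fits of the 2 populations alone gave 3 members in A vs parental, 0 in M vs E2 and 174 genes in M vs E2. Without parental replicate 1 and E2 replicate 1 together, 2 members were called in M vs E1 and 0 in M vs E2, with 1440 genes in E2 vs parental and 64 in E2 vs E1. The cause was not tested.

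The labels do not say that a replicate number marks a shared culture or day. Correlations of same-numbered deviations ran from -0.0579 to 0.213, with 4 of 30 over 0.1 against 0 of 60 for libraries with different numbers, and for 14 of 15 libraries the closest library of another population had the same number, a hint from the data that they may be paired. With a replicate block, 2255 genes were called in E1 vs parental, 2674 in E2 vs parental, 4156 in A vs parental and 2207 in M vs parental, against 1922, 2281, 3814 and 1798 without it, and 3 members were called in M vs E2, with 68 genes in E2 vs E1 and 699 in M vs E2. Under the block Plau also passed in E1 vs parental (edgeR adjusted p = 0.0459), M vs parental (0.00445), A vs E1 (0.00206) and M vs A (0.0436), Serpinb2 in M vs E2 (0.0247) and Serpinb5 in M vs E2 (0.0330).

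Plaur in E2 vs parental was also lost with RLE factors (edgeR adjusted p = 0.0547), a minimum count of 30 (0.0559), DESeq2 (0.0511) and 2 populations alone (0.119). Without parental replicate 1 and E2 replicate 1 together, the calls of Plau in A vs E2 (0.1252), Plaur in E2 vs parental (0.1249), Serpine2 in A vs parental (0.0649) and Serpine2 in M vs E2 (0.0838) were lost. At the depth outside the 6 leading genes, Plat, Serpine2 in E1 and E2, and Serpinb5 in the parental line rest on few counts, and a count of 0 allows up to 0.0322 CPM in A and 0.0378 CPM in the parental line.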
